A study of Mus musculus with 8 samples.

Results

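The 10 core circadian clock genes were examined in RNA from pancreatic islets with and without activation of Notch in β cells. They were the rows of the deposited count table with the symbols Arntl, Clock, Per1, Per2, Per3, Cry1, Cry2, Nr1d1, Nr1d2 and Dbp. All 10 were found among the 32531 gene symbols of the table, and all 10 were among the 15082 genes with enough counts to test. Islets came from 4 control mice, with the genotype RIP-Cre+, Rosa26-rtTA+, tetO_NICD-, and from 4 β-tetO-NICD mice (NICD libraries 1, 2, 4 and 5), with the genotype RIP-Cre+, Rosa26-rtTA+, tetO_NICD+. Both groups were on a mixed background of C57BL/6J, 129X1/SvJ and BALB/c and drank doxycycline (Dox) for 8 weeks, so controls also carried Cre and rtTA and were exposed to the drug. In the second group Dox induces NICD, the active intracellular part of the Notch1 receptor, in cells where the insulin promoter has driven Cre, which are mostly β cells. Whole islets were sequenced, so each value sums over β cells and all other islet cells, and fewer cells of a type cannot be told apart from less RNA per cell. The age of the mice and the time of day of islet collection, which sets the level of many clock genes, are not given in the sources used here.

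The circadian clock is a loop of transcription factors that runs in almost every cell. ARNTL (also called BMAL1) and CLOCK bind E-boxes as a pair and switch on the Per, Cry, Nr1d and Dbp genes. PER and CRY proteins then return to the nucleus and block that pair, REV-ERBα and REV-ERBβ (from Nr1d1 and Nr1d2) repress Arntl through ROR elements, and DBP activates genes with D-boxes, Per genes among them. In running clocks Arntl and Dbp therefore peak at opposite times of day. In mouse islets, loss of the clock in β cells is known to impair glucose-stimulated insulin secretion.

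Control elements of this loop can be read in the promoters of some members. Of these promoters 4 are shown because together they hold an example of each element found. RefSeq windows on GRCm38.p6, from 250 bases before to 50 bases after a transcription start site, were available for 9 members, in 13 windows. Both strands were searched for the E-box CACGTG, the related CACGTT, the D-box TTATGTAA, the core TAGGTCA of the ROR element and the cAMP response element TGACGTCA, and matches are in capitals.
Arntl, chr7:113207261-113207560, plus strand: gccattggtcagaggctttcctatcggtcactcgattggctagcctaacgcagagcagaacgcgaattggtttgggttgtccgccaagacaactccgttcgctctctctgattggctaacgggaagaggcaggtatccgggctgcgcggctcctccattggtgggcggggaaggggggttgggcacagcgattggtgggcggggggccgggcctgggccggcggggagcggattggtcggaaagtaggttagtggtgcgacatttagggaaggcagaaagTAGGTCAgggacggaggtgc
Per1, chr11:69098699-69098998, plus strand: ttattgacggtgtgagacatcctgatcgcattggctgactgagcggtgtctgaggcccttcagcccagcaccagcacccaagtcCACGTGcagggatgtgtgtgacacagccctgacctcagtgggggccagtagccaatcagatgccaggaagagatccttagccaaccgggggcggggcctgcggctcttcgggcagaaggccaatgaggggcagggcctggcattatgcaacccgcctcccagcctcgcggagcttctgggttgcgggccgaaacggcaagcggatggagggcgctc
Per3, chr4:151044616-151044915, minus strand: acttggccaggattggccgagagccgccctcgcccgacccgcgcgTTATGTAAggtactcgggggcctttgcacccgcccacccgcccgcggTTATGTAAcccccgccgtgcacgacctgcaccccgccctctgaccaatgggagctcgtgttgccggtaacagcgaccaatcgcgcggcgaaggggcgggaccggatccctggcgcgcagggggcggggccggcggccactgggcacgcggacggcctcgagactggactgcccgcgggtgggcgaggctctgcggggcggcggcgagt
Cry1, chr10:85185005-85185304, minus strand: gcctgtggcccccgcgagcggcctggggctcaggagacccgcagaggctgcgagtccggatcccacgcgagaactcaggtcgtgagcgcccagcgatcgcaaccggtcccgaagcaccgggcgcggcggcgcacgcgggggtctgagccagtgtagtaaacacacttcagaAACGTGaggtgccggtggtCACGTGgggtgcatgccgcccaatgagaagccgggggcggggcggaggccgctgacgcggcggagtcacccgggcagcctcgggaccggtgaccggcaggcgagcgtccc
Arntl held the ROR element core, Per1 an E-box, Per3 a pair of D-boxes, and Cry1 an E-box with a CACGTT match on the other strand near it. No match overlapped another. CACGTT was also found, on the other strand, in the windows of Cry2 and Nr1d1, and the cAMP response element in none of the 13. The E-box CACGTG was found only in Per1 and Cry1. No element was found in any window of Clock, Nr1d2 or Dbp, or in the other windows of Arntl and Per1. Per2 had no window. Among all 32851 windows, 7.15% held CACGTG, 4.68% CACGTT, 0.938% TTATGTAA, 2.61% TAGGTCA and 1.79% TGACGTCA. A match describes the letters of the window and not a bound site.

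The libraries held between 21701223 and 26413146 counts. Notch1, whose intracellular part the transgene encodes, was higher in every NICD library (574 to 1320 CPM, counts scaled to library size) than in any control (41.6 to 65.0 CPM), as the labels require, although its counts do not separate transgene from endogenous gene. Summed β cell markers took 16.5% to 19.2% of the counts in controls and 6.99% to 15.3% in β-tetO-NICD islets, and α cell markers 1.17% to 4.21% and 6.01% to 6.82%. With the β cell marker score as a covariate no gene of the table passed, since that score separates the groups, so its part in the clock values cannot be told apart from genotype. Libraries also differed in how expression varied with transcript length. Spearman's rho, across 14655 genes, between a library's deviation from the mean of all libraries and the longest annotated transcript was positive in controls 1, 2 and 4 and in NICD library 1 (0.418 to 0.497), and negative in control 3 and in NICD libraries 2, 4 and 5 (−0.521 to −0.174). This difference runs with genotype in 6 of the 8 libraries and may bear on clock genes with long or short transcripts, so values are given beside it. The Y-linked gene Eif2s3y was detected in controls 2 and 4 and in NICD library 5 (1300 to 1527 counts), and the 5 others held 1 count or none, although the study's methods name male mice. The last columns of the β-tetO-NICD group are numbered 4 and 5 and could not be tied to a labelled mouse.

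No clock member changed past the threshold in β-tetO-NICD islets. Of the 10, 0 had an adjusted p under 0.05 by edgeR's quasi-likelihood test, where 6.76% of all tested genes did (4.19% higher and 2.57% lower). Clock itself came nearest, at about 0.512 times the control level, and Cry1, Arntl and Per2 followed with unadjusted p under 0.05. These 4 of 10 compare with 31.6% of all tested genes at that level. The log2 fold change was positive in 5 members and negative in 5, with a median of −0.04 (all tested genes, 0.00), and the median size irrespective of sign was 0.42 (all tested genes, 0.38). In none of the 10 did the groups fail to overlap, whereas they did not overlap in 16.1% of all tested genes. By DESeq2's Wald test 1 member passed and by limma-voom 1, Clock in each case, where 18.2% and 7.18% of all genes passed.

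**Figure D1:**
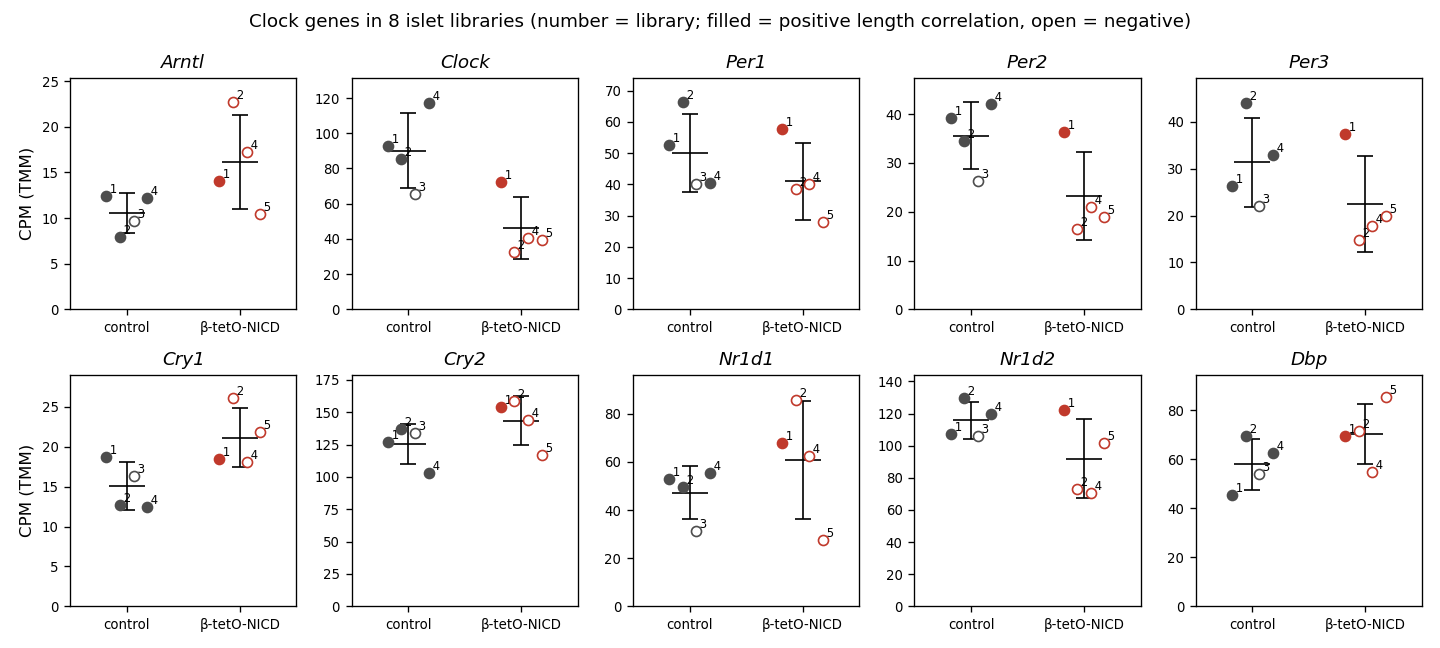
Each panel plots 1 clock gene in CPM (vertical axis, from 0) in 4 control and 4 β-tetO-NICD islet libraries, numbered by library, with the group mean and SD. Filled points are libraries whose expression correlated positively with transcript length and open points those with a negative correlation. For Clock the open β-tetO-NICD points lie between 32.7 and 40.4 CPM, and the filled one at 72.1 CPM lies above control 3.

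Among the activators, Clock (chromosome 5, 76209868 to 76304792 on GRCm38), which encodes the partner of ARNTL, had 92.8, 85.3, 65.3 and 117 CPM in controls 1 to 4. It had 72.1, 32.7, 40.4 and 39.2 CPM in NICD libraries 1, 2, 4 and 5. Libraries 2, 4 and 5 lay below every control, and library 1 lay above control 3, so the groups overlapped. Means of 90.1 ± 21.4 and 46.1 ± 17.7 CPM (SD, n = 4 per group) gave a log2 fold change (NICD over control) of −0.97 (its standard error 0.27, 95% interval −1.56 to −0.37, adjusted p = 0.0589 from edgeR's test). Clock has the longest transcript of the 10, at 9744 bases. In libraries with a positive length correlation its log2 CPM was 6.17 in NICD library 1 and 6.61 on average in controls 1, 2 and 4, a difference of −0.43. Among those with a negative correlation it was 5.22 on average in NICD libraries 2, 4 and 5 and 6.03 in control 3, a difference of −0.81. Each difference rests on a single library of 1 group and has no test of its own. The fit with the sign of the length correlation as a block, chosen after seeing the data, takes both together and gave −0.63 for Clock, which did not pass (adjusted p = 0.0641). With an offset for the length trend of each library, the log2 fold change of Clock was −0.48, and Clock passed (adjusted p = 0.0331, where 10.7% of genes passed). With the length correlation as a covariate it was −0.46 and did not pass (adjusted p = 0.162). Over all alternatives tried, its adjusted p ranged from 0.00436 to 0.628 and its sign stayed negative.

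Arntl (chromosome 7, 113207465 to 113314126), the other gene of the activator pair, had 12.4, 7.90, 9.73 and 12.2 CPM in controls. It had 14.1, 22.7, 17.2 and 10.5 CPM in NICD libraries 1, 2, 4 and 5. Libraries 1, 2 and 4 lay above every control, and library 5 lay among them. The log2 fold change was 0.61 (standard error 0.25, 95% interval 0.05 to 1.17, adjusted p = 0.138), opposite in sign to that of its partner Clock. It was 0.71 with the length offset, with an adjusted p of 0.0907, and positive under every alternative tried, where the adjusted p was never under 0.0782.

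The 3 Per genes all had negative log2 fold changes, and none passed. Per2 (chromosome 1, 91415982 to 91459324) had 39.2, 34.5, 26.4 and 42.1 CPM in controls 1 to 4, set against 36.4, 16.4, 20.9 and 18.9 CPM with NICD. As with Clock, libraries 2, 4 and 5 were below every control and library 1 was not. Its log2 fold change was −0.62 ± 0.26 (estimate ± standard error, adjusted p = 0.140). Per3 (chromosome 4, 151003652 to 151044665), the gene with a pair of D-boxes above, had 26.3, 44.0, 22.1 and 32.9 CPM in controls 1 to 4. With NICD it had 37.4, 14.7, 17.8 and 20 CPM, and the same 3 libraries were below every control. Its log2 fold change was −0.48 ± 0.31 (estimate ± standard error, adjusted p = 0.296). Per1 (chromosome 11, 69095217 to 69109960), which besides its rhythm is induced rapidly by cAMP and glucocorticoids, had 40.2 to 66.5 CPM in controls and, with NICD, 27.9 to 57.7 CPM. The log2 fold change of Per1 was −0.28 ± 0.24 (estimate ± standard error, adjusted p = 0.428). In NICD library 1 alone, set against controls 1, 2 and 4, log2 CPM differed by 0.15 for Per1, −0.08 for Per2 and 0.15 for Per3. With each library's length correlation as a covariate, the log2 fold changes of Per1 and Per3 turned to 0.09 and 0.07, and Per2 was at −0.13. Single libraries moved Per1 and Per3. Per1 was at −0.11 without control 2, −0.13 without NICD library 5 and −0.49 without NICD library 1, and Per3 at −0.27 without control 2 and −0.32 without NICD library 2.

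The Cry genes, whose proteins bind PER and inhibit CLOCK and ARNTL most directly, had positive log2 fold changes. Cry1 (chromosome 10, 85131700 to 85185064) had 18.7, 12.7, 16.3 and 12.5 CPM in controls 1 to 4, set against 18.5, 26.1, 18.1 and 21.8 CPM with NICD. Only control 1 reached into the β-tetO-NICD range. Its log2 fold change was 0.49 (standard error 0.19, 95% interval 0.07 to 0.91, adjusted p = 0.122), and its adjusted p was at least 0.0569 under all alternatives tried. Cry2 (chromosome 2, 92403646 to 92434043) was far more abundant, with 103 to 137 CPM in controls and, with NICD, 117 to 159 CPM. As for Arntl, libraries 1, 2 and 4 lay above every control and library 5 lay among them. Its log2 fold change was 0.20 ± 0.16 (estimate ± standard error, adjusted p = 0.393), which turned to −0.56 with the β cell marker score as a covariate.

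The REV-ERB genes, the repressors of Arntl, had log2 fold changes of opposite sign. Nr1d1 (chromosome 11, 98767932 to 98775333) had 53.0, 49.4, 31.1 and 55.4 CPM in controls. In β-tetO-NICD islets it had 68.0, 85.9 and 62.3 CPM in libraries 1, 2 and 4 but 27.5 CPM in library 5, the lowest of all 8. Its log2 fold change was 0.37 (standard error 0.32, 95% interval −0.34 to 1.07, adjusted p = 0.431), and it moved with single libraries, to 0.61 without NICD library 5, 0.16 without NICD library 2 and 0.21 without control 3. Nr1d2 (chromosome 14, 18204054 to 18239127) had 106 to 130 CPM in controls. It had 122, 72.9, 70.7 and 102 CPM in NICD libraries 1, 2, 4 and 5, and its log2 fold change was −0.34 ± 0.20 (estimate ± standard error, adjusted p = 0.252). For Nr1d2 the estimate was −0.16 with the length offset and −0.10 with the length correlation as a covariate.

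Dbp (chromosome 7, 45705088 to 45710203), the output activator and often the most rhythmic transcript of a tissue, had 45.4, 69.4, 54.2 and 62.7 CPM in controls. It had 69.5, 71.5, 55.0 and 85.3 CPM in NICD libraries 1, 2, 4 and 5, of which library 5 was the highest of all 8. The log2 fold change was 0.28 (standard error 0.18, 95% interval −0.12 to 0.68, adjusted p = 0.295) and turned to −0.03 with the length offset, Dbp having the shortest transcript of the 10, at 1837 bases. Exons of Dbp and Nr1d1 overlap exons on the other strand over 539 bases of Sphk2 and 263 bases of Thra, exons of Cry2 over 295 bases of D930015M05Rik, and exons of Arntl over 33 bases of Gm45355. The sources used here do not say whether strand was used in counting, so part of their reads could belong to those genes.

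**Figure D2:**
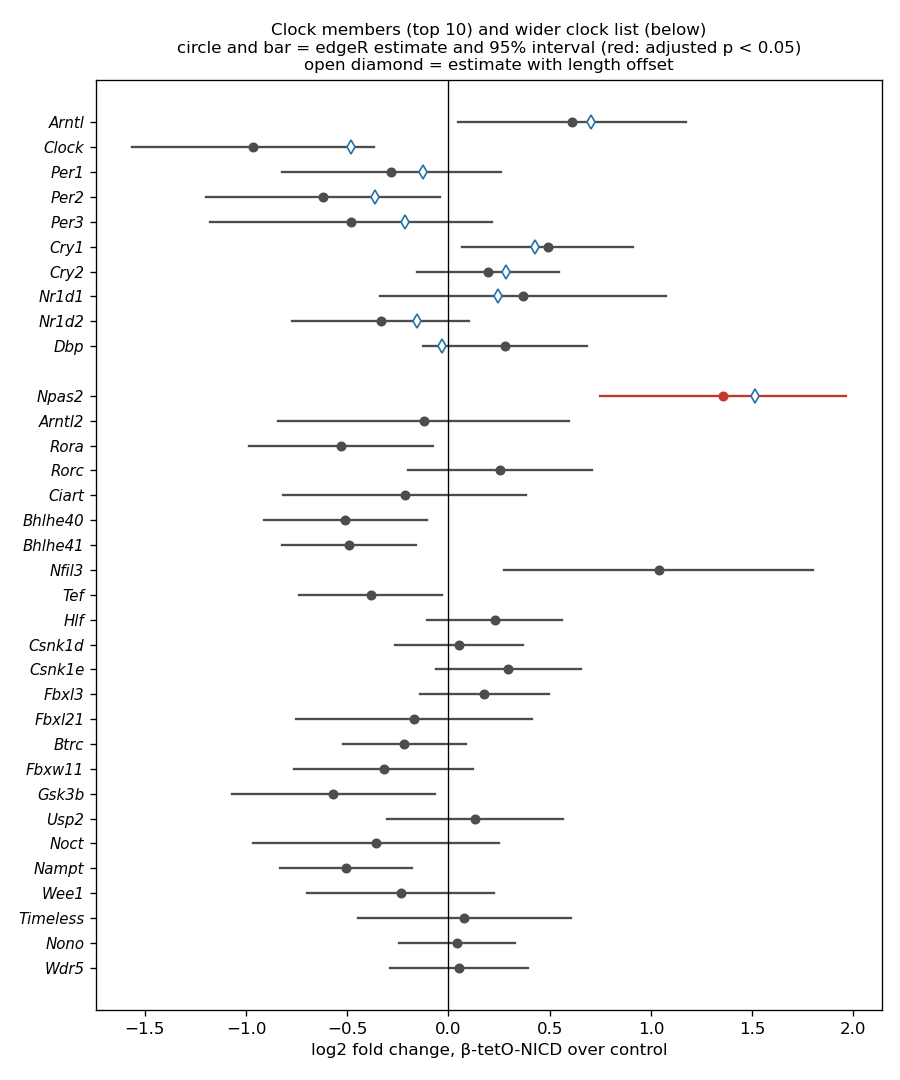
Log2 fold change of β-tetO-NICD over control islets (horizontal axis) for the 10 clock members and 24 further clock genes, with 95% intervals from edgeR. Open diamonds, drawn for the members and Npas2, are estimates with the length offset. Among the 34 genes Npas2, at 1.36, is the only one past the threshold, and Clock has the lowest estimate, −0.97.

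With NICD library 1 left out, Clock, Per2, Per3 and Nr1d2 passed, at −1.26, −0.92, −0.84 and −0.50 on the log2 scale (adjusted p = 0.00436, 0.00900, 0.0267 and 0.0497 from edgeR's test). In that comparison 4954 genes, or 33.2% of those tested, passed as well, and the remaining NICD libraries all had negative length correlations. With any other single library left out, 0 members passed, where 2.14% to 5.78% of all tested genes did.

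Members with negative log2 fold changes all had longer transcripts than those with positive ones. Among the positive members the order did not follow length. Arntl, at 3995 bases, had the highest log2 fold change, 0.61, and Dbp, the shortest at 1837 bases, had 0.28. Spearman's rho between the log2 fold change and the longest transcript was −0.806 over the 10 members and −0.486 over the 14655 tested genes with a length. Genes are not independent replicates, and these values share the 8 libraries, so they carry no p. Genes with transcripts over 8000 bases had a median log2 fold change of −0.53 (quartiles −0.85 and −0.20), and Clock lay below the lower quartile. In the class from 3000 to 4000 bases the median was −0.05 (quartiles −0.31 and 0.24), and Arntl and Cry1 lay above the upper quartile. Per2 lay below the lower quartile of its class, from 5000 to 6000 bases (−0.53). Its log2 fold change was −0.37 with the length offset and −0.13 with the length correlation as a covariate. Per1, Per3, Nr1d2, Nr1d1, Cry2 and Dbp lay within the quartiles of their classes. How much of each difference comes with transcript length was not tested.

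**Figure D3:**
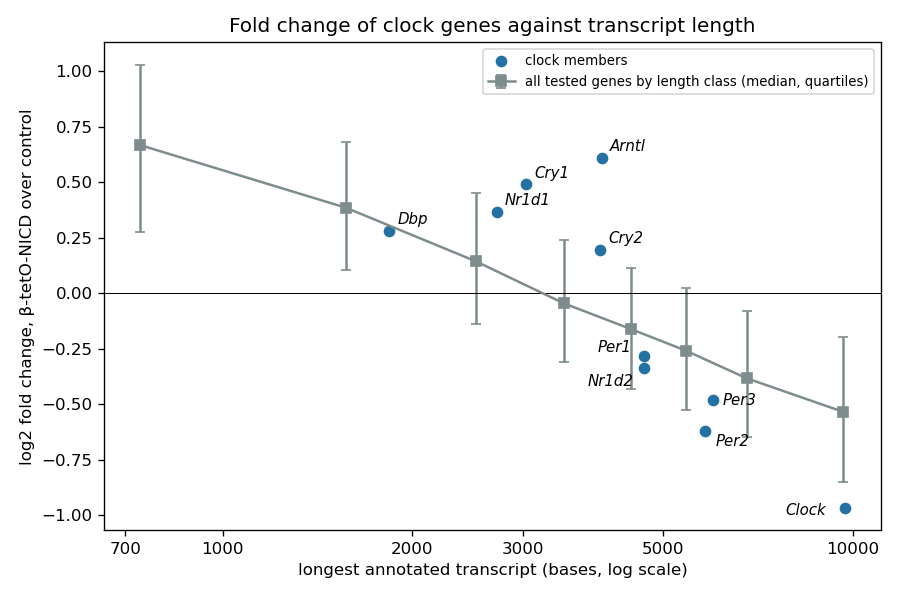
Log2 fold change of β-tetO-NICD over control islets (vertical axis) against the longest annotated transcript in bases (log axis). Grey squares and bars are the medians and quartiles of all tested genes by length class, falling from 0.67 under 1000 bases to −0.53 over 8000 bases, and blue points are the 10 clock members.

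Levels between genes were compared per kilobase of the longest annotated transcript. In controls Cry2 and Dbp had the highest levels, 31.5 ± 3.94 and 31.5 ± 5.67 CPM per kilobase (SD, n = 4), followed by Nr1d2 with 24.8 ± 2.47 and Nr1d1 with 17.4 ± 4.05. Per1, with 10.7 ± 2.67, and Clock, with 9.25 ± 2.19, did not differ beyond their spread, nor did Per2, Per3 and Cry1, between 4.97 and 6.10. Arntl was the lowest, at 2.64 ± 0.536 CPM per kilobase. In β-tetO-NICD islets Dbp (38.3 ± 6.76) and Cry2 (36.1 ± 4.73) were again at the top. Clock, at 4.73 ± 1.81, and Arntl, at 4.03 ± 1.29, came within each other's spread there. These levels were not adjusted for the length trend of each library, so its part in them was not tested.

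As a possible reading of clock state, the log2 ratio of Dbp to Arntl was 1.87, 3.12, 2.47 and 2.35 in controls 1 to 4. It was 2.30, 1.65, 1.68 and 3.02 with NICD, in the order of libraries 1, 2, 4 and 5. Control 2 and NICD library 5 had the highest ratios, each with the lowest Arntl and the highest Dbp of its group. These libraries also held Eif2s3y (1300 and 1465 counts), as did control 4, whose ratio was 2.35. The group means, 2.45 ± 0.52 and 2.16 ± 0.64 (SD, n = 4), differed by −0.29, less than the spread between mice (pooled SD 0.58). With the length offset the difference was −0.69, and no SD was computed for the offset ratios. It ranged from −0.58 to −0.07 with any 1 library left out. Nr1d1, which is also switched on through E-boxes, did not follow the ratio. It was highest in NICD library 2 (85.9 CPM, ratio 1.65) and lowest in NICD library 5 (27.5 CPM, ratio 3.02). Control 1, with the lowest control ratio, had 53.0 CPM of Nr1d1, and control 2, with the highest, 49.4 CPM. Over deviations from group means, Nr1d1 had a Pearson r of 0.75 with Arntl and −0.32 with Dbp. Whether the ratio reads clock state in these islets was not tested.

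**Figure D4:**
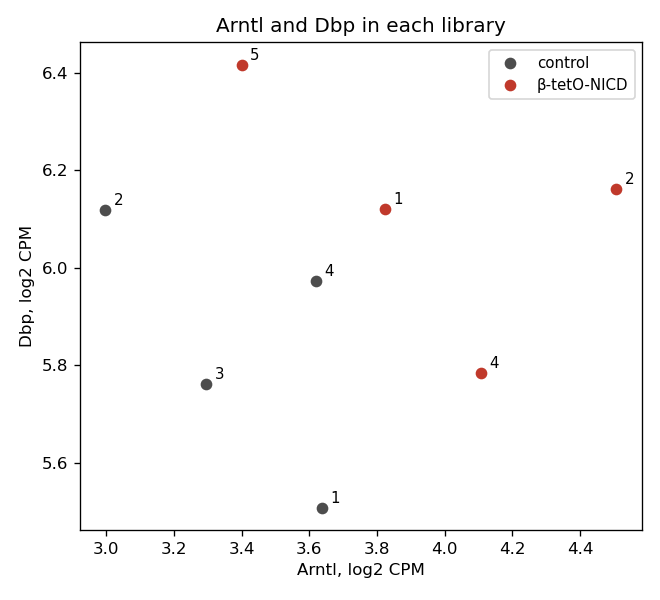
Log2 CPM of Arntl (horizontal axis) and Dbp (vertical axis) in each library, numbered within its group. The groups intermingle in Dbp, NICD libraries 2, 1 and 4 have the highest Arntl, and control 2 and NICD library 5 combine a low Arntl with a high Dbp.

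Of 25 further clock genes, 24 could be tested and 1, Npas2, passed the threshold, where 6.76% of all tested genes did. Npas2 (4236 bases), a paralog of Clock that can pair with ARNTL in its place, had 2.08, 1.52, 1.19 and 1.38 CPM in controls. It had 3.14, 4.98, 3.35 and 4.33 CPM in NICD libraries 1, 2, 4 and 5, all above every control. It rose 2.56-fold (log2 fold change 1.36, standard error 0.27, 95% interval 0.75 to 1.97, adjusted p = 0.0195 from edgeR's test), and the difference was positive both in library 1 against controls 1, 2 and 4 (0.91) and in libraries 2, 4 and 5 against control 3 (1.74). With the length offset it was 1.51 (adjusted p = 0.0117). Without control 2, control 4 or NICD library 2 the call was lost (adjusted p = 0.0573, 0.0639 and 0.0722), while the log2 fold change stayed at 1.36, 1.31 and 1.23. The call was also lost with the length correlation as a covariate (1.24, adjusted p = 0.113), in the 5 libraries without Eif2s3y (1.23, adjusted p = 0.262) and with the sign of the length correlation as a block (1.36, adjusted p = 0.0597). With the β cell score as a covariate the log2 fold change was 2.71 (adjusted p = 0.628). Even so, Npas2 remained well below Clock per kilobase, at 0.933 ± 0.203 against 4.73 ± 1.81 CPM per kilobase with NICD (SD, n = 4).

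The other 23 tested genes of that list did not pass, with log2 fold changes between −0.57 and 1.04. At the upper end was Nfil3, which encodes the D-box repressor that opposes DBP, with 4.77 to 13.8 CPM in controls and, with NICD, 12.9 to 25.7 CPM (log2 fold change 1.04, standard error 0.34, adjusted p = 0.0877). Bhlhe41 (DEC2), a further repressor at E-boxes, and Nampt, a rhythmic enzyme of NAD synthesis, had groups that did not overlap, and stood at −0.49 and −0.50 on the log2 scale (adjusted p = 0.0712 and 0.0645). With Npas2 these made 3 of the 24 without overlap, where 16.1% of all tested genes had none. DESeq2 called Nfil3, Bhlhe41 and Nampt beside Npas2, 4 of the 24, where it called 18.2% of all genes. Rora, which activates Arntl through the ROR element, stood at a log2 fold change of −0.53 (adjusted p = 0.121). The kinase genes Csnk1d and Csnk1e, whose products phosphorylate PER, had 0.05 and 0.30 (adjusted p = 0.813 and 0.221). Rorb was under the count minimum. Over the 24 genes the median log2 fold change was −0.15, beside 0.00 for all genes tested.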

How the data were processed

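Stranded mRNA libraries were made from whole islets, 4 per group. The authors used Kallisto against GRCm38 transcripts and deposited whole-number counts per gene symbol, not normalized. The Kallisto version, the annotation release and the rounding of estimated counts are not given in the sources used here. A second deposited table holds the authors' own limma comparison (fold changes, mean expression, test statistics and p values) and was not used. Replicates are separate mice by their labels, and libraries of the same group always differed by more than counting noise (a mean chi-square per gene of at least 31.5 between any pair).

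Genes reaching 10 counts in 4 or more of 8 libraries were normalized by TMM and compared with edgeR 4.0.16 (R 4.3.3) by the quasi-likelihood test without covariates. An adjusted p under 0.05 (Benjamini-Hochberg over all tested genes) was the threshold, and every adjusted p is from edgeR except where DESeq2 or limma-voom is named. CPM are scaled by the same TMM factors, and log2 CPM use a prior count of 2. With 21701223 to 26413146 counts per library, counting error is small for the members, which all had over 100 counts per library. The length offset is a spline with 4 degrees of freedom, per library, on the longest GENCODE M21 transcript (97.2% of tested genes matched by symbol), and coordinates are from GENCODE M21. Fits were tested on simulated data. Alternatives were DESeq2 1.42.0, limma-voom (limma 3.58.1), other normalizations and filters, covariates for marker scores, length correlation and Eif2s3y, a replicate block, and leaving out each library. The members and the gene lists were chosen with earlier results of these data known. Named were all members, wider-list and companion genes past the threshold, and the genes most like Dbp and Arntl. A few more were chosen after their values were seen. These were Nfil3, Bhlhe41, Nampt, Rora, Csnk1d and Csnk1e, and among companions Fos, Egr1, Junb and the 7 glucocorticoid-induced genes.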

Additional observations from a re-analysis of the deposited data

How the results depend on the processing

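Across 23 alternatives to the main test, the number of members past the threshold stayed at 0 in 17. It was 1 (Clock) with DESeq2, limma-voom, the acinar score as a covariate, the length offset and the replicate block. Of all tested genes 18.2%, 7.18%, 7.58%, 10.7% and 6.43% passed in these fits, in that order. With each library left out it was 0 to 4, where 2.14% to 33.2% of all tested genes passed. The wider list gave 4 with DESeq2, 0 to 8 with each library left out, and 0 with the β cell score or length correlation as a covariate. The 8, of 24 tested, came without NICD library 1, where 33.2% of all tested genes passed. The number of genes past the threshold, 1020, became 2739 with DESeq2, 1566 with the length offset, 430 with the length correlation as a covariate, and 319 (without NICD library 2) to 4954 (without NICD library 1) with each library left out. With the β cell score, which separates the groups fully, edgeR called 0 genes, and 794 had an unadjusted p under 0.05. Chosen after seeing the data, the 5 libraries without Eif2s3y gave 123 genes and 0 of the wider list, and the sign of the length correlation as a block 608 and 0. Signs turned for Dbp with the length offset (−0.031), Per1 and Per3 with the length correlation (0.085 and 0.072), and Cry2 with the β cell score (−0.555). The cause was not tested. Signs of all 10 members held under the other normalizations. The log2 ratio of Dbp to Arntl stayed negative, from −0.69 to −0.07.

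Replicate numbers are settled in both groups for 1 and 2 only, and deviations of same-numbered libraries had r of 0.276 and −0.0901, so the numbers are not taken as pairs. With these numbers as a replicate block 970 genes (6.43% of those tested) and 1 member passed, Clock with a log2 fold change of −1.04 (adjusted p = 0.0443).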

Other observations

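Genes that share inducers with Per1 were examined as lists. Of 11 tested immediate early genes 2 rose and 0 fell in β-tetO-NICD islets, where 4.19% of all tested genes rose and 2.57% fell. Ier2 went from 13.5 ± 4.08 to 35.9 ± 6.85 CPM (SD, n = 4, adjusted p = 0.00873 from edgeR's test) and Atf3, a stress-induced transcription factor, from 2.42 ± 1.10 to 5.77 ± 0.867 CPM (SD, n = 4, adjusted p = 0.0477). The other 9, Fos, Egr1 and Junb among them, did not pass. Of 7 cAMP-induced genes 1 rose, Crem, which also encodes the cAMP repressor ICER, with 14.4 to 16.5 CPM in controls and 18.6 to 34.1 CPM in β-tetO-NICD islets (log2 fold change 0.80, adjusted p = 0.0371). Of 7 glucocorticoid-induced genes 0 passed by edgeR, 1 had an unadjusted p under 0.05 (31.6% of all tested genes did), and their median log2 fold change was −0.51. Among these Klf9, itself rhythmic in many tissues, had 7.36 CPM in β-tetO-NICD library 5 against 30.0 to 59.7 CPM in the other β-tetO-NICD libraries. It was the same library that had the lowest Nr1d1 and the highest Dbp, and the only library of its group in which Eif2s3y was detected. Other genes of the glucocorticoid list did not share 1 direction there. In that library Tsc22d3 (70.5 CPM) was the highest of all 8 and Mt2 (219 CPM) the highest of its group. Sgk1 (22.1 CPM) was the lowest of its group, and Fkbp5, Zbtb16 and Errfi1 lay within the range of the group. Of other cell types, 3 of 6 α cell, 1 of 3 δ cell and 1 of 7 macrophage markers rose, 2 of 9 β cell markers fell, and none of the PP, acinar, duct, endothelial, stellate and fibroblast, or nerve and glia markers passed.

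Within groups, the correlations of members with Arntl and with Dbp differed in sign and size. Over the deviations of the 8 libraries from their group means, Arntl had a Pearson r of −0.56 with Dbp, 0.75 with Nr1d1 and −0.66 with Nr1d2, and Dbp had 0.57 with Nr1d2 and −0.32 with Nr1d1. With Clock, Per1 and Per2, r was between −0.08 and 0 for Arntl and between −0.13 and 0.04 for Dbp, near the middle of all genes. Per3, Cry1 and Cry2 had r of −0.48, 0.38 and 0.24 with Arntl, and 0.38, −0.28 and −0.32 with Dbp. Among 12753 other genes with a mean of at least 50 counts, 2.25% had a higher r with Arntl than Nr1d1, and 6.85% a higher r with Dbp than Nr1d2. Of those genes 93% had a higher r with Arntl than Dbp, and 96.3% than Nr1d2. A higher r with Dbp than that of Nr1d1 was found in 74.3%. The genes most like Dbp were Ccnl1, Ebf3, Fcgr2b, Tbp and Slc15a2 (r from 0.914 to 0.963) and the most opposite Map1s, Atf6b, C2cd2l, Hgs and Lmf2 (−0.981 to −0.951). For Arntl they were Kcnj4, Arhgef16, Lhfpl4, Slc44a3 and Atp9a (0.966 to 0.982), and Tmem39a, Chfr, Zbtb10, Stk38 and P2rx4 (−0.977 to −0.958). None of these 20 is a member or on the wider clock list. The points share depth and the length trend of each library, and the values are descriptions.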
